A study of Mus musculus with 3 samples.

Results

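The genes described here are the mouse zinc finger genes whose symbol is Zfp followed by a number of 3 digits that begins with 9, as the annotation of the expression array names them, called Zfp900-series genes below. The array held 48 probe sets for 47 such genes, out of 19505 genes with a symbol, and 39 of the 47 lay above background. RefSeq lists 62 mouse genes with a symbol of this form, so 75.8% of them had a probe set. The numbers follow the order of naming, and the genes were chosen by name and described by their measured levels, so the levels and differences below are given as a description.

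Plasmacytoid dendritic cells, the dendritic cells specialised in making type I interferon, were measured in 3 groups with 1 array each. The first group was treated with astragaloside IV, a saponin from Astragalus root, for 12 h and then with the chemokine CCL21 for 1 h. The second was treated with oxymatrine, an alkaloid from Sophora root, on the same schedule, and the last was the control. The cells of all 3 groups came from bone marrow of wild-type male BALB/c mice aged 4 to 5 weeks, were grown for 6 to 9 days with Flt3 ligand at 100 ng/mL, were matured with CpG oligodeoxynucleotides and were sorted. Doses, the number of mice per sample and the handling of the control cells (CCL21, vehicle or neither) are not stated in the labels, so a difference from control cannot be told apart from a difference in the CCL21 step. The study asked how both compounds slow the migration of these cells. With 1 array in each group there was no replicate error, and no test, p-value or standard error is given for any gene.

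C2H2 zinc finger proteins carry rows of small zinc-binding fingers, and each finger reads a few bases of DNA. Many of the mouse proteins also carry a KRAB domain, which recruits the corepressor TRIM28 (KAP1), and TRIM28 in turn brings the histone methyltransferase SETDB1 and the HP1 proteins to the bound DNA. This machinery is best known for silencing endogenous retroviruses and other transposable elements. Mouse KRAB zinc finger genes lie in clusters of recent duplicates, and most genes in such clusters have no described function. Among the genes treated here, Zfp932 is known from mouse embryonic stem cells as a KRAB repressor of endogenous retroviruses. Zfp979, which RefSeq also lists as Ssm1b, is a strain-specific modifier of transgene methylation. No role is given for the others.

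In the 3 arrays together, 13 of 13 measured plasmacytoid dendritic cell markers were above background, Siglech with values of 8.99, 9.02 and 8.99 for astragaloside IV, oxymatrine and control. Markers of other cells were above background as well, in 8 of 8 measured cases for monocytes and macrophages, 7 of 10 for conventional dendritic cells, 3 of 6 for B cells, 3 of 9 for T and NK cells, 2 of 9 for neutrophils and 2 of 6 for erythroid and mast cells. Summed over all measured markers of a list, including those below background, the log2 levels with astragaloside IV, oxymatrine and control were 149.3, 148.6 and 150.3 for plasmacytoid dendritic cells. In the same order they were 71.7, 71.5 and 72.2 for conventional dendritic cells, and 95.8, 95.6 and 95.9 for monocytes and macrophages. They were 43.8, 45.0 and 45.6 for T and NK cells, 52.2, 53.4 and 53.5 for neutrophils, and 43.8, 44.2 and 44.1 for erythroid and mast cells. B cell markers ran the other way, with 38.5, 39.2 and 38.0. With astragaloside IV, some markers above background were lower than control by more than the spread of genes of like level. For other cells, examples were -1.01 for Il2rb (T and NK cells) and -0.73 for Itgae (conventional dendritic cells). Further ones were -0.51 for Lcn2 and -0.49 for Csf3r (neutrophils), and -0.42 for Car2 (erythroid and mast cells). With oxymatrine the difference was -0.84 for Il2rb, -0.49 for Itgae, -0.27 for Lcn2, -0.10 for Csf3r and -0.11 for Car2. Some plasmacytoid dendritic cell markers were lower by more than this spread too. Examples are Ccr9 (-0.27 with astragaloside IV, -0.32 with oxymatrine) and Irf7 (-0.10, -0.21). Ptprc (-0.22, -0.43) is on this list as well, but its product CD45 is carried by leukocytes in general. Siglech, Bst2, Tcf4 and Tlr7 were equal to control with astragaloside IV. Higher by more than this spread were Ebf1 (B cells, 0.30) and Fcgr1 (monocytes and macrophages, 0.13) with astragaloside IV. With oxymatrine these were Ebf1 (0.32) and Ly6c1 (monocytes and macrophages, 0.27). Other markers of the same cell types were lower by more than this spread. With astragaloside IV they were Adgre1 (-0.14) and Mertk (-0.27) of monocytes and macrophages and Cd79b (-0.22) of B cells. For oxymatrine it was Mertk (-0.45). In a bulk sample, fewer cells of a type and less RNA per cell cannot be told apart. The part of other cells in the differences below was not tested.

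Background was set at a log2 level of 5.28, the value that 95% of 1412 genes for olfactory (Olfr) and vomeronasal (Vmn) receptors stayed under. By their mean over the 3 arrays, 39 of 47 Zfp900-series genes, or 83.0%, reached this level. The same held for 217 of 283 other Zfp genes with a number (76.7%) and for 10671 of all 19505 genes (54.7%). In all 3 arrays together, 38 of the 47 reached it, and Zfp936 reached it in the 2 treated arrays only. Just inside stood Zfp936 with a mean of 5.51 and Zfp951 with 5.88, and just outside stood Zfp937 with 5.21, Zfp964 with 5.10 and Zfp940 with 4.68. The brightness of a probe set depends on its probe sequences as well as on the RNA, so levels of different genes do not rank their transcripts. The plot of levels by chromosome shows the 47 genes in the 3 arrays.

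**Figure D1:**
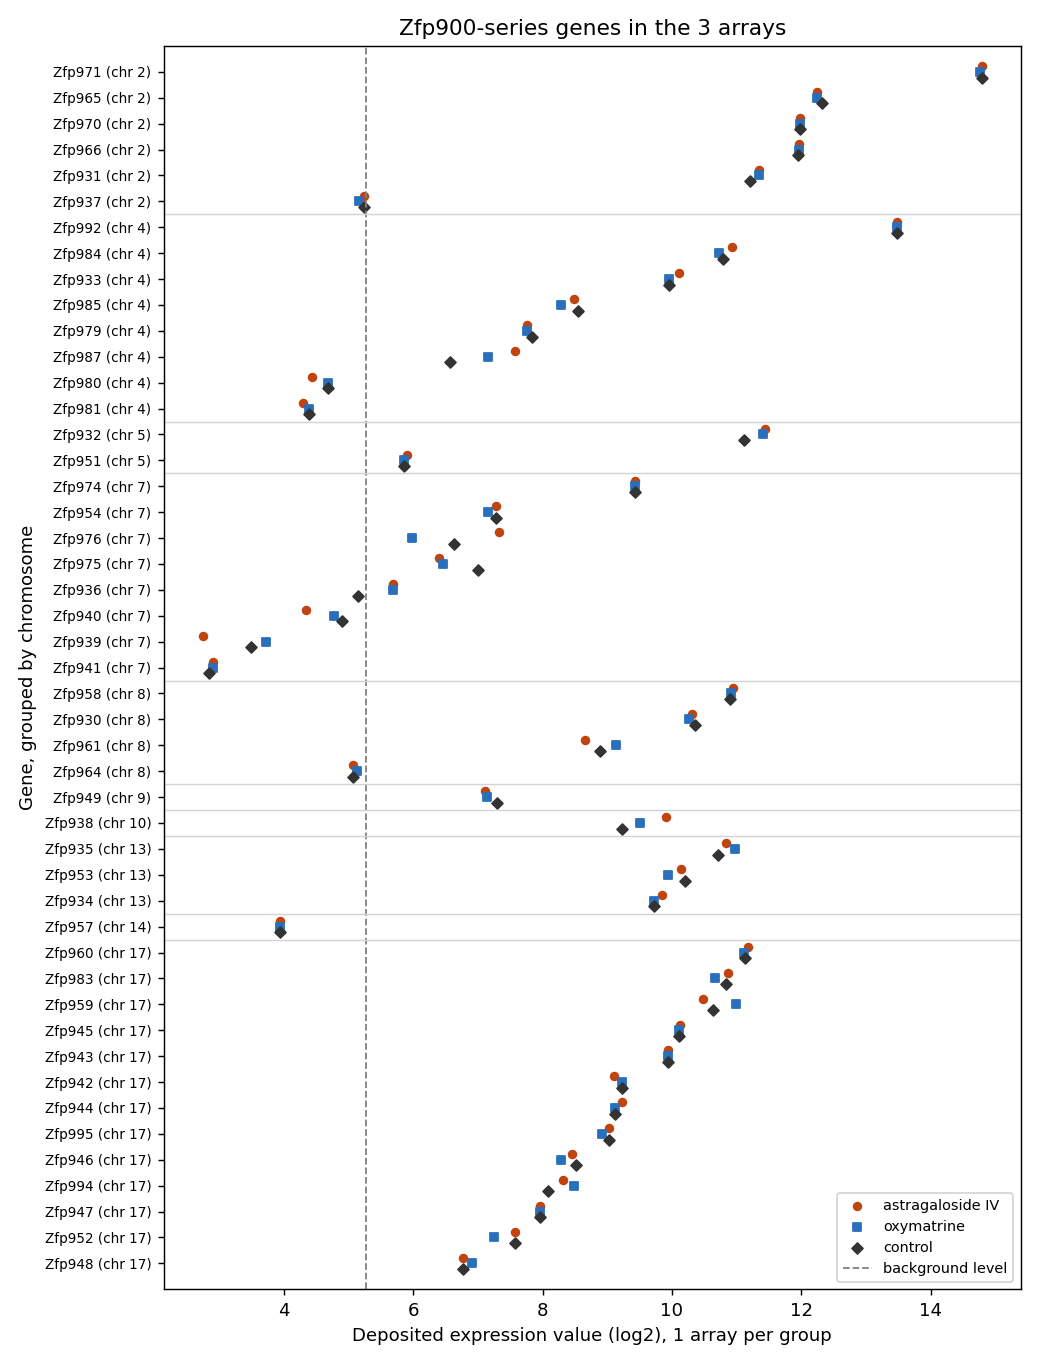
Deposited log2 value of each Zfp900-series gene (rows, grouped by chromosome and ordered by mean) in the astragaloside IV array (circles), the oxymatrine array (squares) and the control array (diamonds), with the background level of 5.28 as a dashed line. For most genes the 3 points lie close together, while Zfp987, Zfp976, Zfp975 and Zfp938 are spread, as is Zfp939 below background. By their mean, 8 genes lie left of the line.

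The largest difference among the genes above background lay between the treated arrays, at Zfp976 on chromosome 7. Zfp976 had a log2 value of 7.32 with astragaloside IV, 5.98 with oxymatrine and 6.63 in control, so that the control lay between the treated arrays. Astragaloside IV was above oxymatrine by 1.34 on the log2 scale, or 2.54-fold. That is 4.77 times the SD of genes of like level. Here and below, this SD is the SD of a comparison over the genes of a bin, with the genes above background split into 20 equal bins by mean level. It is a spread between genes and not a replicate error, and for astragaloside IV against control it was 0.26 in the bin of Zfp976 and 0.08 in that of Zfp971. Against control, Zfp976 was higher by 0.70 with astragaloside IV (2.71 times the SD) and lower with oxymatrine, with a difference of -0.64 (-2.36 times).

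Zfp987 on chromosome 4 was the single Zfp900-series gene above background that was 2-fold apart from control. Its values were 7.57 with astragaloside IV, 7.16 with oxymatrine and 6.57 in control, both treated arrays being above control. The difference from control was 1.00 with astragaloside IV, or 4.07 times the SD of genes of like level, and 0.59 with oxymatrine, or 2.14 times. Both comparisons use the same control array, so they are not independent of each other.

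Zfp975, the neighbour of Zfp976 among protein-coding genes, was lower than control in both treated arrays, whereas Zfp976 was so with oxymatrine but not with astragaloside IV. Zfp975 had 6.40 with astragaloside IV, 6.46 with oxymatrine and 7.00 in control, with the control on top. The differences from control were -0.60 (-2.32 times the SD) and -0.54 (-1.97 times). The treated arrays were -0.06 apart, whereas they were 1.34 apart at Zfp976 next to it.

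Zfp938 on chromosome 10, a brighter gene, had 9.92 with astragaloside IV, 9.50 with oxymatrine and 9.22 in control. Both treated arrays were above control, by 0.69 with astragaloside IV, or 1.61-fold and 3.88 times the SD, and by 0.27 with oxymatrine, or 1.36 times. Zfp936 on chromosome 7 had 5.69 in both treated arrays and 5.15 in control, a difference of 0.54 in each case. Its control value lay below background and both treated values above it.

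**Figure D2:**
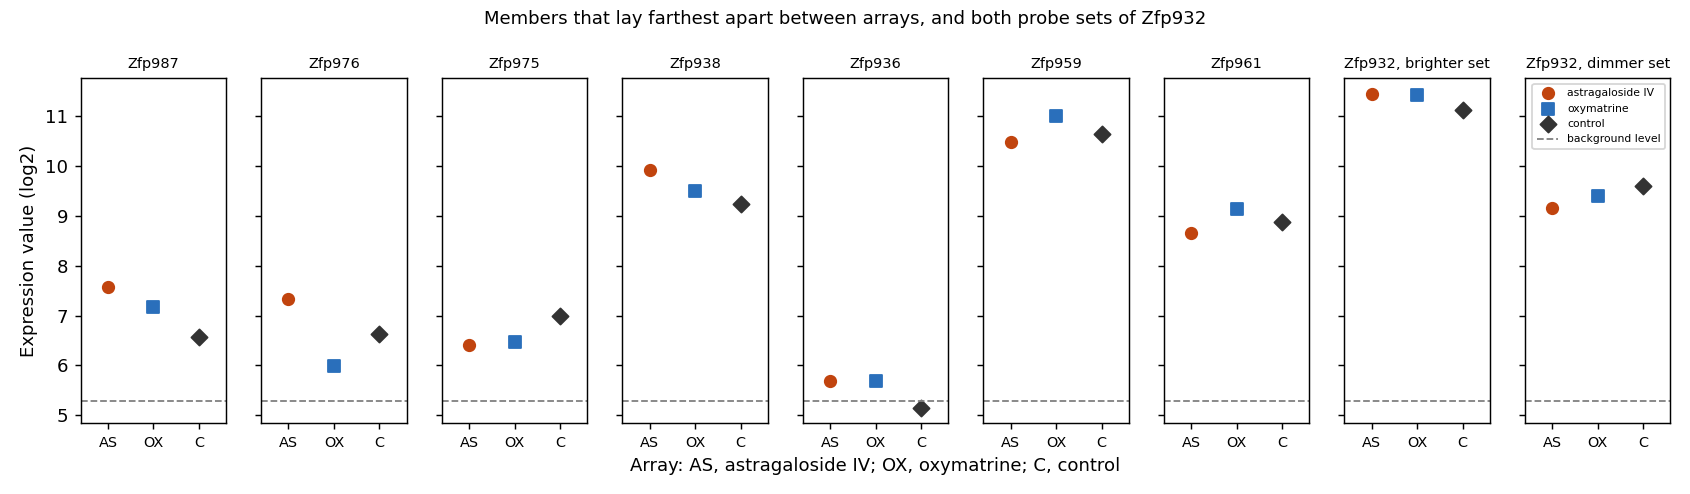
Log2 value in the astragaloside IV (AS), oxymatrine (OX) and control (C) arrays for 7 Zfp900-series genes and for both probe sets of Zfp932, 1 array per point, with the background level as a dashed line. Control lies lowest for Zfp987, Zfp938 and Zfp936, highest for Zfp975 and between the treated arrays for Zfp976, Zfp959 and Zfp961, and the 2 probe sets of Zfp932 run in opposite directions.

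RefSeq promoter sequences (GRCm38.p6) were at hand for 43 of the 47 genes, matched by gene identifier. The 250 bases before the annotated start were compared. These are sequences of the mouse reference genome and not of the BALB/c mice used, and differences between strains were not examined. The first set is printed because Zfp976, its neighbour Zfp975 and Zfp936 lie on the same chromosome and had different patterns over the 3 arrays. Capitals mark the letters CCAAT or their reverse complement ATTGG. Zfp976 is at chr7:42642605-42642854 (minus strand), Zfp975 at chr7:42692719-42692968 (minus strand) and Zfp936 at chr7:43177340-43177589 (plus strand).
Zfp976: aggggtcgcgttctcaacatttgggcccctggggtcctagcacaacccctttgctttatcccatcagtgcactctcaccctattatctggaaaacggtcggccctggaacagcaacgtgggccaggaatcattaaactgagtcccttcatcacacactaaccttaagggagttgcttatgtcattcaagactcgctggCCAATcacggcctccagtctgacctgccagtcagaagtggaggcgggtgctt
Zfp975: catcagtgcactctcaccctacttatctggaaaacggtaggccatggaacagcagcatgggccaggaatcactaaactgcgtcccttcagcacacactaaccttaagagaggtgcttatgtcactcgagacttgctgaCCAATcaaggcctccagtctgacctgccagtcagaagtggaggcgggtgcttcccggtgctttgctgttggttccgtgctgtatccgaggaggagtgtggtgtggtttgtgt
Zfp936: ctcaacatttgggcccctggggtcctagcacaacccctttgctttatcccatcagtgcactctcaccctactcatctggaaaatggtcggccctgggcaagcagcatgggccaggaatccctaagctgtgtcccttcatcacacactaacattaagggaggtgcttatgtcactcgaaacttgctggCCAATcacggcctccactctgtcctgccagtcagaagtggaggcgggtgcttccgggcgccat

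Zfp976 and Zfp936 share 83.6% of aligned promoter positions, and their differences from control were 0.70 and 0.54 with astragaloside IV and -0.64 and 0.54 with oxymatrine. Zfp936 was above background in the 2 treated arrays and not in control, so its control value is not well above background and no weight is put on the size of its difference. The next set holds Zfp987 at chr4:146097062-146097311 and Zfp985 at chr4:147553027-147553276 (both plus strand), whose promoters are 83.8% identical. It is printed because Zfp987 stood apart from control and Zfp985 did not reach 1.5-fold.
Zfp987: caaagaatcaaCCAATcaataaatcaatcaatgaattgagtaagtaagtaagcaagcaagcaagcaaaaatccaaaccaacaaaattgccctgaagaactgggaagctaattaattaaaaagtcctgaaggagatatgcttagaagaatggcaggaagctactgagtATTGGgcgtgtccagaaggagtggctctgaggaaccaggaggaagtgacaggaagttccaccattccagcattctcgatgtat
Zfp985: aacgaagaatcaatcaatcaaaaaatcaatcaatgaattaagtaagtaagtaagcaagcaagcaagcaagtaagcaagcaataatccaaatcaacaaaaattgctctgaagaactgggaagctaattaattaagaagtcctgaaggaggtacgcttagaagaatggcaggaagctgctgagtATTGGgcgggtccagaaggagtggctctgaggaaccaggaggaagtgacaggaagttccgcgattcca

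Zfp985 had 8.49 with astragaloside IV, 8.29 with oxymatrine and 8.55 in control. Its differences from control were -0.06 and -0.26, against 1.00 and 0.59 at Zfp987. Another set shows the closest pair, Zfp965 at chr2:175469775-175470024 and Zfp971 at chr2:178023034-178023283 (both plus strand), with 97.2% identity. It is printed because the differences of both genes lay between -0.07 and 0.02 in the 3 comparisons.
Zfp965: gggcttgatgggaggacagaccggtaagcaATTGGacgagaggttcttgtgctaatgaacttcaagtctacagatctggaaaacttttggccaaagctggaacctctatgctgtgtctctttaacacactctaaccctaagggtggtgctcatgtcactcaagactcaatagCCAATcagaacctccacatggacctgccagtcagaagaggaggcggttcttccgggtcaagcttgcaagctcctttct
Zfp971: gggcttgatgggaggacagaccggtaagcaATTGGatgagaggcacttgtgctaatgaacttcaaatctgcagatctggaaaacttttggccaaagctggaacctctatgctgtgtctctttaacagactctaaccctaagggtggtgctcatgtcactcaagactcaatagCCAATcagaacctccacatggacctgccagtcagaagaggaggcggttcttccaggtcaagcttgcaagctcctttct

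In all, 12 of 903 pairs of promoters were at least 80% identical, and both genes of each of the 12 pairs were on the same chromosome. They involved 12 genes: Zfp965, Zfp966, Zfp970 and Zfp971 on chromosome 2, Zfp979, Zfp980, Zfp985 and Zfp987 on chromosome 4, Zfp936 and Zfp976 on chromosome 7, and Zfp942 and Zfp944 on chromosome 17. The median identity over all pairs was 49.8%. Gaps at the ends of an alignment count against identity, so promoters with offset annotated starts score lower. Zfp975 is not among the 12 genes, and its CCAAT ends 108 bases before the start, against 48 in Zfp976. Absence from these pairs therefore does not show that a promoter has no close relative. The 4 chromosome 2 genes gave the 4 highest identities, from 90.7% to 97.2%. Their differences lay close together, while those of the pairs with Zfp987 lay apart. These chromosome 2 genes are bright, with means from 11.96 to 14.78, and Zfp987 is dimmer, with a mean of 7.10. For astragaloside IV against control, the SD of genes of like level was 0.08 for Zfp971, 0.13 for the others and 0.25 for Zfp987. Small differences are thus usual at the level of the chromosome 2 genes, and a link with promoter identity was not tested. Near-identical copies can share probe signal, and how many probes of these sets match more than 1 gene was not tested.

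**Figure D3:**
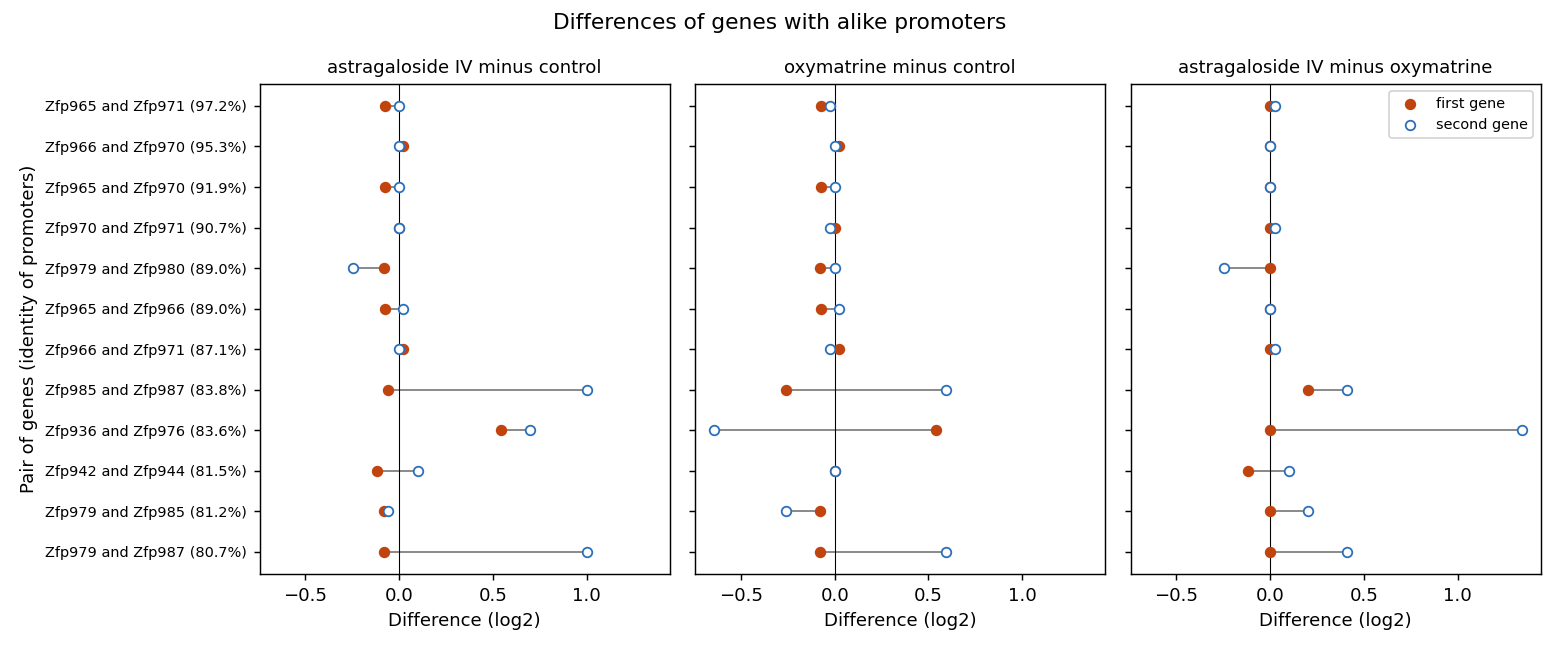
Log2 differences of both genes of each pair with promoters at least 80% identical (rows, ordered by identity), for astragaloside IV minus control, oxymatrine minus control and astragaloside IV minus oxymatrine. Filled points are the first gene named, open points the second, and a line joins them. The points of Zfp965, Zfp966, Zfp970 and Zfp971 lie between -0.07 and 0.02 in the 3 comparisons. Zfp987 lies at 1.00 and 0.59 against control, and its partners Zfp985 and Zfp979 lie between -0.26 and -0.06.

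The promoters also shared short motifs, which were picked after the sequences had been looked at and are given as a description. The CCAAT box, bound by the factor NF-Y in many promoters, was searched as CCAAT on both strands and found in 31 of the 43 genes, or 72.1%. It was found in 106 of 230 other Zfp genes (46.1%) and in 10133 of all 27025 genes in the table (37.5%). In the printed promoters it reads as CCAAT in Zfp976, Zfp975, Zfp936 and Zfp938, as ATTGG in Zfp985, and in both forms in Zfp965, Zfp971 and Zfp987. The ETS core CCGGAAG was in 8 of 43 (18.6%), close to the 18.3% of other Zfp genes, and in 7.83% of all genes. The GC box GGGCGG was in 13 of 43 (30.2%), against 47.4% of other Zfp genes and 35.4% of all genes. The E-box CACGTG was in 7 of 43 (16.3%), against 6.09% of other Zfp genes and 6.86% of all genes. The TATA box, searched as TATAAA, was in 0 of 43, against 9.57% of other Zfp genes and 14.3% of all genes. The letters TGANTCA of an AP-1 site were in 0 of 43 as well, against 3.91% of other Zfp genes and 7.82% of all genes. The promoters are not independent, since several are near copies. The 31 genes with a CCAAT box had mean levels from 2.89 to 14.78, with 24 above background, and the 12 without it from 3.94 to 10.11, with 11 above background. A match in these letters does not show that a factor binds there.

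The promoter of Zfp938 is at chr10:82241281-82241530 (minus strand). It is printed because Zfp938 alone of the 28 genes with a mean level of 8 or more was 1.5-fold apart in any comparison. The comparison was astragaloside IV against control, where 3.57% of the 28 and 0.701% of all 6848 genes of that level were so. For oxymatrine against control and between the treated arrays, 0 of the 28 were so, beside 1.504% and 1.022% of all genes of that level. RefSeq gives 2 starts for Zfp938, and the first listed is shown.
Zfp938: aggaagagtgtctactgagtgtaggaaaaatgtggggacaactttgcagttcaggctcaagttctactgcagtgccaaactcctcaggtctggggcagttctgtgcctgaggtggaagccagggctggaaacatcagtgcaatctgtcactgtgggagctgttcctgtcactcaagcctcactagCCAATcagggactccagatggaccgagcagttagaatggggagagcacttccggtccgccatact

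On chromosome 2, the 5 genes above background were bright, with differences of at most 0.15 in size. Zfp971, which RefSeq also lists as Etohi1, had 14.78, 14.76 and 14.78 for astragaloside IV, oxymatrine and control. Zfp965 had 12.24, 12.24 and 12.31 in that order, and Zfp966 had 11.96, 11.96 and 11.94. Zfp970 had 11.98 in each array. Zfp931, the neighbour of Zfp971, had 11.35 in both treated arrays and 11.20 in control, a difference of 0.15 in each case. No gene of this cluster differed from control by more than that, which at Zfp931 was 1.06 times the SD of genes of like level with astragaloside IV. Exactly the same value in both treated arrays was found in 4 of the 5, and in 26.7% of all genes above background. Zfp937, on the same chromosome, was below background in all 3 arrays.

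On chromosome 4, 6 of 8 genes were above background. Zfp992 had 13.48 in each array. Zfp984 had 10.93, 10.72 and 10.78 for astragaloside IV, oxymatrine and control, and its neighbour Zfp933 had 10.11, 9.95 and 9.95. In both, astragaloside IV was the highest of the 3. Zfp979, the methylation modifier, had 7.76 in both treated arrays and 7.84 in control, a difference of -0.08. Zfp980 and Zfp981 were below background, at 4.44 and 4.30 with astragaloside IV, 4.68 and 4.40 with oxymatrine, and 4.68 and 4.40 in control.

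Chromosome 7 held 8 genes, 5 of them above background. Among these were Zfp976 and Zfp975, whose 3 values were widely spread, and Zfp936. The control value of Zfp936 lay below background, so no weight is put on its spread. Zfp976, Zfp975 and Zfp936 were dim, with means between 5.51 and 6.64, where genes in general lay farther apart. The 2 other genes above background were steadier. Zfp974 had 9.42 in each array, and Zfp954 had 7.29 with astragaloside IV, 7.15 with oxymatrine and 7.28 in control. Of the genes below background, Zfp939 had 2.75, 3.73 and 3.50 in that order, Zfp940 had 4.34, 4.78 and 4.91, and Zfp941 had 2.91, 2.91 and 2.85.

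The chromosome 17 genes formed the largest group, with 13 of 13 above background and none of them 1.5-fold apart in any comparison. Of all genes above background, 2.13% were so for astragaloside IV and 3.31% for oxymatrine against control, and 2.58% between the treated arrays. For 13 genes, a count of 0 is near these shares. On this chromosome, Zfp959 was the 1 with the widest spread, at 10.48 with astragaloside IV, 11.00 with oxymatrine and 10.63 in control. Its treated arrays were -0.51 apart, or -3.30 times the SD of genes of like level. Control lay between them, as it did for Zfp976. Zfp994 had 8.32, 8.49 and 8.08 for astragaloside IV, oxymatrine and control, with both treated arrays above control by 0.25 and 0.41. Zfp952 had 7.58, 7.25 and 7.57, so that oxymatrine alone stood apart from control, with a difference of -0.32. Zfp983 had 10.87, 10.66 and 10.84, and Zfp946 had 8.46, 8.29 and 8.52. In both of them oxymatrine was the lowest of the 3.

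Zfp943 had 9.95 and Zfp947 had 7.96 in each array. Zfp942, a neighbour of Zfp943, had 9.11 with astragaloside IV and 9.23 in the other 2 arrays, while Zfp944 had 9.23 with astragaloside IV and 9.13 in the other 2. Zfp995, the other neighbour of Zfp942, had 9.03 with astragaloside IV, 8.92 with oxymatrine and 9.03 in control. Zfp960 had 11.17, 11.11 and 11.13 in the same order, Zfp945 had 10.12, 10.10 and 10.10, and Zfp948 had 6.78, 6.91 and 6.78. The spread of the 3 values in these 8 genes was at most 0.13. It was wider in Zfp983, Zfp946, Zfp952, Zfp994 and Zfp959.

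On chromosome 8, Zfp961 had 8.66 with astragaloside IV, 9.13 with oxymatrine and 8.88 in control. The differences from control were -0.22 and 0.25, and the treated arrays were -0.47 apart, or -2.33 times the SD. Zfp961 thus ran as Zfp959 did, with oxymatrine highest and astragaloside IV lowest. Zfp958 had 10.95, 10.92 and 10.89 in the same order, and Zfp930 had 10.32, 10.26 and 10.35. Zfp964 lay below background at 5.08, 5.14 and 5.08.

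The chromosome 13 genes were Zfp935 with 10.83, 10.97 and 10.71, Zfp934 with 9.85, 9.72 and 9.72, and Zfp953 with 10.13, 9.94 and 10.20 for astragaloside IV, oxymatrine and control. In Zfp935 oxymatrine was highest, by 0.26 over control, and in Zfp953 it was lowest, with a difference of -0.26. Zfp949 on chromosome 9, which RefSeq also lists as Nczf, had 7.12, 7.14 and 7.29 in that order. Zfp951 on chromosome 5 had 5.91, 5.87 and 5.87, and Zfp957 on chromosome 14 had 3.94 in each array.

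Zfp932, the retroviral repressor on chromosome 5, was measured by 2 probe sets that disagreed. The brighter had 11.44 with astragaloside IV, 11.41 with oxymatrine and 11.12 in control, with differences from control of 0.32 and 0.30. The dimmer had 9.16, 9.39 and 9.59, with differences of -0.43 and -0.20. Both treated arrays were thus above control by 1 probe set and below it by the other, and no direction is given for this gene. In counts of genes the brighter set stands for it.

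Counted over the 39 genes above background, 1 gene (Zfp987) was 2-fold apart between astragaloside IV and control, where 0.197% of all 10671 genes were. At 1.5-fold there were 4 genes, or 10.3%, with Zfp987, Zfp976 and Zfp938 higher and Zfp975 lower. After quantile normalisation Zfp975 came to -0.57, short of the 1.5-fold limit of 0.58, which left 3 higher and 0 lower. Of all genes 2.13% were 1.5-fold apart (0.843% higher and 1.28% lower), as were 7 of 217 other Zfp genes (3.23%). Among genes with a mean level under 8, 3 of 11 Zfp900-series genes and 4.68% of all genes were 1.5-fold apart. Regardless of size, 20 were higher, 11 lower and 8 equal, while 31.4% of all genes were higher and 40.8% lower. Centring the arrays gave 28 higher and 11 lower, and quantile normalisation 29 higher and 10 lower. Centring shifted this comparison by 0.0002, which put the 8 equal genes among the higher ones. Shares of all genes after either scaling were not computed, so these counts have no such share beside them. The median difference was 0.00 for the Zfp900-series genes and 0 for all genes.

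Between oxymatrine and control no Zfp900-series gene above background was 2-fold apart, where 0.281% of all genes were. At 1.5-fold there were 2, Zfp987 higher and Zfp976 lower, or 5.13%. After centring Zfp987 came to 0.57, short of 1.5-fold, which left 0 higher and 1 lower. Of all genes 3.31% were 1.5-fold apart (1.3% higher and 2.01% lower), and of other Zfp genes 4.15%. In all, 12 were higher, 16 lower and 11 equal, beside 29.7% of all genes higher and 46.0% lower. This balance turned with the scaling, to 10 higher and 29 lower after centring and to 23 higher and 16 lower after quantile normalisation. Centring shifted this comparison by -0.0271, which put the equal genes among the lower ones. Shares of all genes after scaling were not computed for it either. The median was 0 in both the Zfp900-series and all genes.

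Between astragaloside IV and oxymatrine, Zfp976 was the single gene of the 39 that was 2-fold apart, and also the single one at 1.5-fold, where 0.159% and 2.58% of all genes were (at 1.5-fold 1.46% higher and 1.12% lower). Here 21 genes were higher with astragaloside IV, 8 lower and 10 equal, beside 40.7% of all genes higher and 32.5% lower. After centring 32 were higher and 7 lower, and after quantile normalisation 20 higher and 19 lower. Centring shifted this comparison by 0.0273, which put the equal genes among the higher ones. Shares of all genes after scaling were again not computed. The median difference was 0.02, and it was 0 over all genes.

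**Figure D4:**
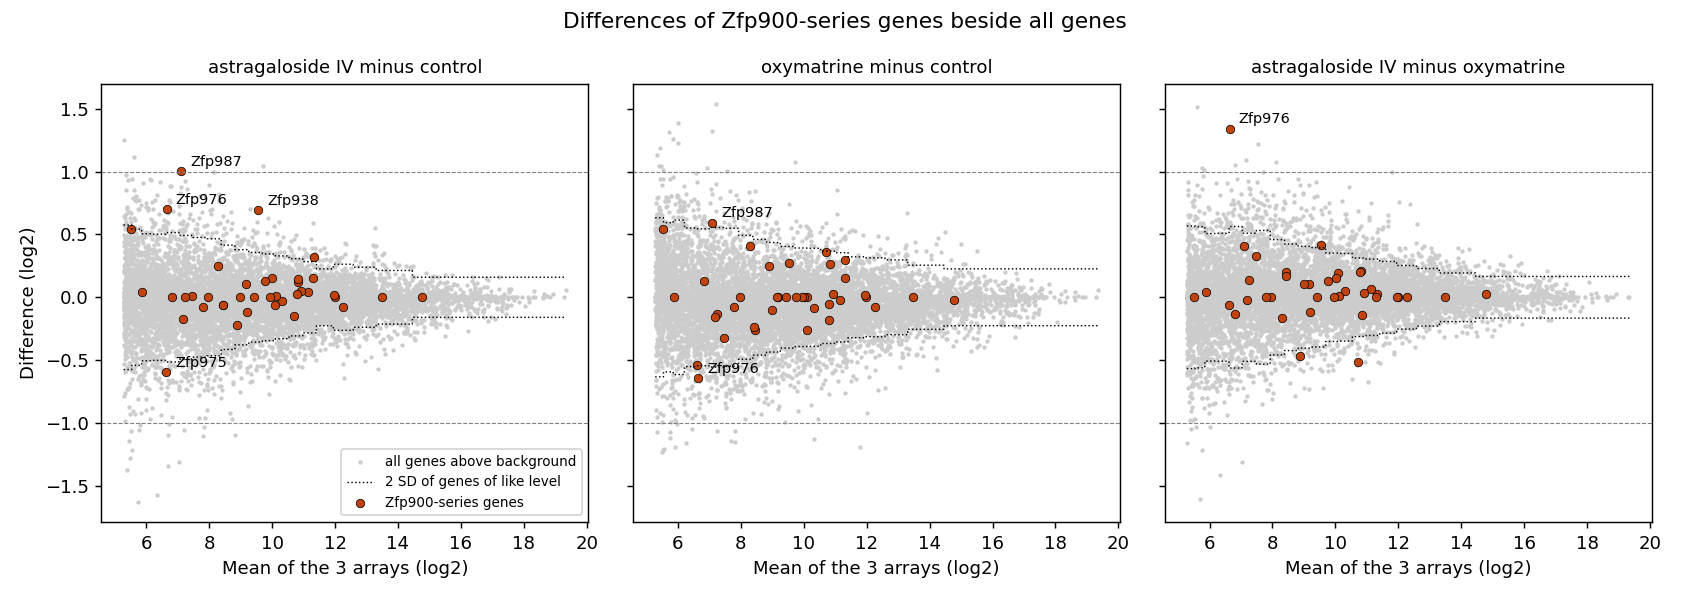
Log2 difference (vertical) against the mean log2 level of the 3 arrays (horizontal) for all 10671 genes above background (grey) and the 39 Zfp900-series genes (red), in the 3 comparisons. Dotted lines mark 2 SD of genes of like level, dashed lines a 2-fold difference, and genes at least 1.5-fold apart are named. Zfp987 reaches the 2-fold line in the left panel and Zfp976 passes it in the right panel.

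Measured against genes of like level, 5 of the 39 genes were more than 2 SD apart between astragaloside IV and control (Zfp987, Zfp938, Zfp976, Zfp975 and the brighter set of Zfp932), or 12.8%, beside 6.96% of all genes. Between oxymatrine and control there were 2 (Zfp976 and Zfp987), or 5.13%, beside 7.19% of all genes. Between the treated arrays there were 4 (Zfp976, Zfp959, Zfp961 and Zfp938), or 10.3%, beside 6.91% of all genes. More than 1 SD apart were 9 of the 39 (23.1%) for astragaloside IV against control, beside 25.0% of all genes. For oxymatrine against control there were 14 (35.9%), beside 26.4%, and between the treated arrays 9, beside 24.8%. The 3 values of a gene spanned under 0.5 in 33 of the 39 genes (84.6%), beside 88.5% of other Zfp genes and 91.2% of all genes above background. They spanned under 0.2 in 23 of the 39 (59.0%), beside 53.9% of other Zfp genes and 62.2% of all genes, and the median span was 0.14 both in the 39 and in all genes. At least 2 of the 3 values were exactly equal in 19 of the 39 (48.7%), as in 51.6% of all genes above background.

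The corepressors that KRAB zinc finger proteins work through were present in the 3 arrays. Trim28 had 9.86 with astragaloside IV, 9.82 with oxymatrine and 9.86 in control, and Setdb1 had 11.43 in each array. The HP1 genes Cbx1, Cbx3 and Cbx5 differed from control by at most 0.05 in size. Of 17 corepressor genes listed, 14 were measured and 13 were above background. Of these 13, 1 was higher, 6 lower and 6 equal with astragaloside IV. With oxymatrine 1 was higher, 9 lower and 3 equal. Of all genes above background, 31.4% were higher and 40.8% lower with astragaloside IV, and 29.7% and 46.0% with oxymatrine. The medians of the 13 corepressor genes were 0 and -0.02, beside 0 for all genes in both comparisons. Of these 13 genes, 2 were 1.5-fold apart with astragaloside IV, 1 with oxymatrine and 0 between the treated arrays. The shares of all genes in the same order were 2.13%, 3.31% and 2.58%. The corepressor genes apart were Atf7ip2, a relative of the SETDB1 partner Atf7ip, and Uhrf1, which guides maintenance DNA methylation. Atf7ip2 had 5.23 with astragaloside IV, 5.49 with oxymatrine and 6.16 in control, the first value being below background. Uhrf1 had 9.51, 9.92 and 10.14 in the same order, with differences from control of -0.63 and -0.22. Of 17 heterochromatin and HUSH complex genes above background, out of 19 measured and 20 listed, none was 1.5-fold apart in any of the 3 comparisons. For 17 genes, a count of 0 is near the shares of all genes just given. Regardless of size, 6 were higher, 6 lower and 5 equal for astragaloside IV, and 4 higher, 8 lower and 5 equal for oxymatrine. The shares of all genes higher and lower are those given above for the corepressor genes.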

How the data were processed

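RNA of 3 samples of bone marrow-derived plasmacytoid dendritic cells was hybridised to 1 whole-transcript array each. The authors deposited log2 levels for each probe set, computed by RMA per the submitters' processing notes, a method that corrects background, normalises by quantiles and combines the probes of a set. Which program and genome build were used is not given in the sources used here. That the scale is log2 was inferred from its range, 1.78 to 19.67. The number of arrays limits the precision.

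Of 28846 probe sets, 19572 had 1 gene symbol in the platform annotation of 2019, 0 had several and the rest had none. All 47 Zfp900-series symbols were found unchanged in RefSeq, whose assembly GRCm38.p6 gave chromosomes, neighbours and promoters. Of several probe sets of a gene, the brightest by its mean was used. Each comparison is a difference of 2 log2 values. The main threshold was 2-fold, with 1.5-fold and 3-fold as alternatives. Other alternatives were the 99th percentile of the receptor genes, no level filter, centring, quantile normalisation and other measures of spread. Promoters were aligned globally with Biopython 1.88. The members, gene lists and motifs were chosen with earlier results of these data known. By rule, the genes above background are named with their levels, as are those just below it. Protein features were not analysed here. The calculation of spreads was tested on simulated data. Python 3.11.15, numpy 2.4.6 and pandas 2.3.3 were used.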

Additional observations from a re-analysis of the deposited data

Results flagged for a closer look

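Zfp976 and Zfp961 lay on opposite sides of control in the 2 treated arrays, each by more than the SD of genes of like level. Zfp976 was above control by 0.70 after astragaloside IV, and its difference after oxymatrine was -0.64. Zfp961 had a difference of -0.22 after astragaloside IV and was above control by 0.25 after oxymatrine. With 1 array in each group these differences between the compounds were not tested.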

How the results depend on the processing

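The number of Zfp900-series genes 2-fold apart was 1 for astragaloside IV against control, 0 for oxymatrine against control and 1 between the treated arrays, and it was the same with the stricter receptor percentile, no level filter, both arrays above background, centring, quantile normalisation and the mean over probe sets. With a 1.5-fold threshold the counts against control were 4 and 2, and with a 3-fold threshold the counts were 0 in the 3 comparisons. Between 38 and 39 genes were above background under the alternatives run. The medians stayed between -0.03 and 0.05. For single genes, centring and quantile normalisation moved 0 of 117 differences by more than the SD of genes of like level, and averaging probe sets moved 2, both of Zfp932, to -0.06 with astragaloside IV and 0.05 with oxymatrine. At the 1.5-fold threshold, whose log2 value is 0.58, Zfp975 with astragaloside IV came to -0.57 after quantile normalisation and Zfp987 with oxymatrine to 0.57 after centring, so that both calls were lost. With the scaled median absolute deviation as the spread, the difference of Zfp987 with astragaloside IV was 8.18 times the spread and that of Zfp976 between the treated arrays 8.81 times. The other spreads gave lower values, close to the main ones of 4.07 and 4.77. With 10 bins of level they were 3.98 and 5.00 times, and with the 100 other Zfp genes nearest in level 3.86 and 3.95 times. No paired analysis was possible because each group has 1 array. A single array per group and dim probe sets limit these values.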
